A study of Mus musculus with 4 samples.

Results

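The genes described here encode the 3 ligands of transforming growth factor beta (Tgfb1, Tgfb2 and Tgfb3), their 3 receptors (Tgfbr1, Tgfbr2 and Tgfbr3) and the 4 latent TGF-beta binding proteins (Ltbp1 to Ltbp4). They were taken by name, 10 genes of the 22456 in the table, and all 10 were measured and passed the filter on low values. RNA was sequenced from the mesenchymal fraction of mammary tumours in Balb/cAnN mice, in 4 libraries. The tumours grew orthotopically from 4T1 cells, a mouse mammary carcinoma line, and were taken 8 days after fat pad injection. In the DMSO group (2 libraries) the 4T1 cells had been kept in the solvent DMSO before injection, and in the GSK group (2 libraries) in 5 µM of the compound GSK269962A for 5 days. The compound was given to the cancer cells in culture, and the sequenced fibroblasts are cells of the host mouse. Both groups went through the same depletion of leukocytes (CD45), endothelium (CD31), epithelium (CD326) and cells with human CD2, by magnetic beads. The ages of the mice, and whether a library came from 1 animal or from a pool, are not given in the labels, and a p-value therefore reflects just the spread among these libraries, which may be technical.

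TGF-beta is made as a precursor whose propeptide stays wrapped around the mature ligand and keeps it silent. Latent binding proteins tie this complex to fibrillin and fibronectin fibres of the matrix, from which integrins and proteases release the ligand. The free ligand binds the type II receptor Tgfbr2, which recruits and activates the type I receptor Tgfbr1, and this phosphorylates the transcription factors Smad2 and Smad3, while Tgfbr3 (betaglycan) presents ligand to the receptors and can be shed as a soluble trap. In tumours the pathway is known for turning fibroblasts into matrix-producing, contractile myofibroblasts.

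The libraries carried the markers of fibroblasts at high values and most of those of the depleted cells at low values. The 9 fibroblast markers averaged between 15.36 and 15.51 (normalised log2 expression) over the 4 libraries, and the 10 pericyte and smooth muscle markers, which the depletion did not target, between 10.77 and 11.12. The 8 leukocyte markers averaged 4.16 to 4.36, the 7 endothelial markers 3.49 to 3.55, the 7 epithelial and 4T1 markers 3.20 to 3.29, and the 6 platelet markers, named because platelets store TGF-beta, 1.89 to 1.92. Single genes lay above their lists, among them Cd53 at 11.03 and Krt19 at 8.82. In such bulk RNA, fewer cells of a type and less RNA per cell cannot be told apart.

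The bases before the start site are shown for Tgfb1, a ligand whose values did not overlap between the groups below, for Tgfb2, a ligand whose values did, and for Tgfbr2, the receptor that binds the ligand. They are the 250 bases upstream of the RefSeq gene start on GRCm38.p6, written 5′ to 3′ along the gene. Capitals mark matches on either strand to the GC box (GGGCGG), to the TATA box with the letters TATAAA, to the CCAAT box, or to the SMAD element, for which the letters CAGACA were searched.
Tgfb1, chr7:25686752-25687001, plus strand: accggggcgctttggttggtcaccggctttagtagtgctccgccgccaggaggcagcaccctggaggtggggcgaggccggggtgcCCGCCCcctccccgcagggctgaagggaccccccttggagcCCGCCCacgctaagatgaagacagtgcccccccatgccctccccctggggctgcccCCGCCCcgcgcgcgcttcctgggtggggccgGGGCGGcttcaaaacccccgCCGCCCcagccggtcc
Tgfb2, chr1:186705990-186706239, minus strand: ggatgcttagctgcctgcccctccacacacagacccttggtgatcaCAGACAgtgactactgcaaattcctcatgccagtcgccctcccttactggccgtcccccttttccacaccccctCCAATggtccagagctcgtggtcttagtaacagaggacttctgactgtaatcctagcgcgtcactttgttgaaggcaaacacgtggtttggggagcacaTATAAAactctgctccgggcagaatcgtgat
Tgfbr2, chr9:116175364-116175613, minus strand: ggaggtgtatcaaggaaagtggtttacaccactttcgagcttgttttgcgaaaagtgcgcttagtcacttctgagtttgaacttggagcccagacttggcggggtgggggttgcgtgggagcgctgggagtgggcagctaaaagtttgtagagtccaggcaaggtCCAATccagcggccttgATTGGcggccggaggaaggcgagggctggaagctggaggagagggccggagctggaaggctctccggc

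The Tgfb1 stretch held 5 GC boxes, between 164 and 16 bases before the start, and neither a TATA box nor a CCAAT box. The Tgfb2 stretch held no GC box but a TATA box 31 bases, a CCAAT box 130 bases and a SMAD element 204 bases before the start. In the Tgfbr2 stretch 2 CCAAT boxes lay 85 and 68 bases before the start, with none of the other motifs. Neither an AP-1 element (TGANTCA) nor a cyclic AMP response element (CRE, with the letters TGACGTCA) was found in the 3 stretches, searched on both strands with overlaps counted. Of 32851 RefSeq promoter windows of the same length, 32.7% held a GC box, 12.4% a TATA box, 33.8% a CCAAT box, 17.1% the SMAD element, 6.75% the AP-1 element and 1.55% the CRE. Of the 8 genes with an entry, Ltbp1 alone had a CRE, 73 bases before the more upstream of its 2 starts. These are matches of letters only, and binding was not measured.

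Whether TGF-beta genes of the fibroblasts differ when the cancer cells had been pre-treated was read from GSK against DMSO. None of the 10 genes passed an adjusted p of 0.05 in limma over all 14548 genes tested, where 0.282% of genes did (41 genes). That fit had no block for the replicate number. With such a block 5 of the 10 genes passed, as did 1374 of all tested genes. The labels do not say whether the numbers pair the libraries. Tgfb1 and Tgfb3 had higher values in both GSK libraries than in either DMSO library, by 1.23-fold and 1.28-fold, and Tgfbr3, Tgfbr2 and Ltbp1 had lower ones, by 1.35-fold, 1.17-fold and 1.26-fold. In 6 of the 10 genes the groups did not overlap, 3 higher and 3 lower in GSK, against 48.6% of all tested genes (24.1% higher and 24.5% lower), so the share is near the background. An unadjusted p under 0.05 was found for 5 of the 10, 2 higher and 3 lower, against 16.0% of all tested genes (7.88% higher and 8.13% lower). The median difference of the 10 genes was -0.00072 (log2) and that of all tested genes -0.00074, while the median size of the difference was 0.165 and 0.0493. These sizes are not like for like, since differences of low genes are compressed in these values. The 10 genes had means from 10.50 to 13.82, whereas the tested genes reached down to 3.32. The difference between the groups exceeded the gap between replicates in both groups for 5 of the 10 genes (Tgfb1, Tgfb3, Tgfbr1, Tgfbr2 and Tgfbr3) and for 35.9% of all tested genes.

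**Figure D1:**
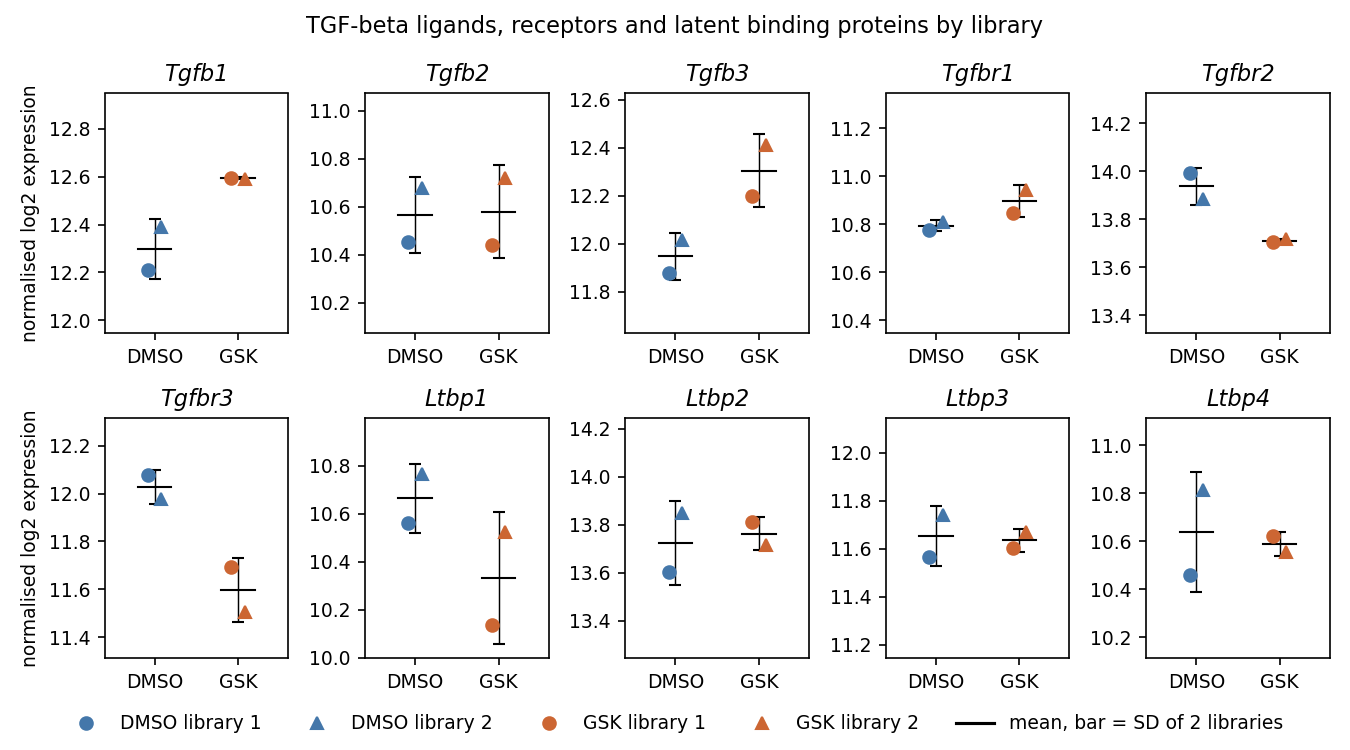
Normalised log2 expression of the 10 genes in each library, DMSO in blue and GSK in orange, with the mean and the SD of the 2 libraries of a group; every panel spans 1 log2 unit. Tgfb1 and Tgfb3 sit higher and Tgfbr2 and Tgfbr3 lower in both GSK libraries, whereas Tgfb2, Ltbp2, Ltbp3 and Ltbp4 overlap between the groups.

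Among the ligands, Tgfb1 (ENSMUSG00000002603, chromosome 7, 25687002 to 25705077, plus strand, GRCm38), the widely made ligand that immune cells, platelets and fibroblasts secrete, had 12.21 and 12.39 in libraries 1 and 2 of the DMSO group, against 12.60 and 12.59 in those of the GSK group. The GSK libraries were nearly equal and both lay above the DMSO libraries, which differed by 0.18 from each other. The means were 12.30 ± 0.13 (SD, n = 2) and 12.59 ± 0.0033, a difference of 0.29 ± 0.07 (SE; limma adjusted p = 0.12). The 95% interval of this difference, not adjusted for the number of genes, ran from 0.13 to 0.46.

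Tgfb3 (ENSMUSG00000021253, chromosome 12, 86056745 to 86079041, minus strand), known from palate closure and scar-poor repair, had 11.88 and 12.02 in DMSO, against 12.20 and 12.41 in GSK. Both GSK libraries were again the higher ones, and library 2 lay above library 1 in each group. The difference was 0.36 ± 0.08 (limma adjusted p = 0.127), with a 95% interval from 0.15 to 0.56. Exons of Gm48008 on the opposite strand cover 257 bases of Tgfb3, so a part of its value is uncertain. Tgfb2 (ENSMUSG00000039239, chromosome 1, 186622792 to 186705989, minus strand), the ligand that depends most on betaglycan for receptor binding, had 10.45 and 10.68 in DMSO and 10.44 and 10.72 in GSK. The replicates of a group spanned more than the groups differed, and the groups overlapped. The difference of 0.02 ± 0.11 (limma adjusted p = 0.959) had an interval from -0.25 to 0.28.

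Among the cell types that could add ligand RNA, 5 of 6 platelet markers were under the filter, and Itga2b, an integrin chain of platelets, was at 6.79 in DMSO and 6.71 in GSK. Of 7 macrophage markers 5 were under the filter, with a list average of 3.39 to 3.43 over the libraries, while Csf1r, the receptor of a macrophage growth factor, was at 8.34 in DMSO and 8.22 in GSK. Of 6 T cell markers measured 4 were under the filter, among them Foxp3, the regulatory T cell factor, at 1.29 in both groups, whereas Cd3e, a chain of the T cell receptor complex, was at 8.77 in DMSO and 8.48 in GSK. Some markers of these cells thus had values well above the rest of their lists, and the part of such cells in the ligand values was not tested. For the leukocyte marker Cd53 the means were 10.58 (DMSO) and 11.48 (GSK; difference 0.91 ± 0.20, limma adjusted p = 0.116), while Ptprc, which encodes the depleted CD45, lay between 3.77 and 3.91. Pericyte and smooth muscle markers averaged 10.77 and 11.03 in DMSO, against 11.06 and 11.12 in GSK. Of these 10 genes 7 had groups that did not overlap, 5 higher and 2 lower, with Cspg4 at 0.49 and Pdgfrb at 0.33, against 48.6% of all tested genes (24.1% higher and 24.5% lower). DMSO library 1 was the lowest library for the average of these markers, for Tgfb1 and for Tgfb3, although for Kcnj8 and Abcc9, the pair that lay lower in GSK, GSK library 1 was the lowest, and the part of pericytes in the ligand values was not tested.

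Among the receptors, Tgfbr2 (ENSMUSG00000032440, chromosome 9, 116084293 to 116175360, minus strand), the ligand-binding type II kinase, had 13.99 and 13.88 in DMSO and 13.70 and 13.72 in GSK. The GSK libraries were almost alike and below both DMSO libraries. The difference was -0.23 ± 0.06 (limma adjusted p = 0.159), with an interval from -0.38 to -0.08. Tgfbr1 (ENSMUSG00000007613, chromosome 4, 47353222 to 47414931, plus strand), the type I kinase, had 10.78 and 10.81 in DMSO and 10.85 and 10.94 in GSK. Its groups did not overlap, but the lower GSK library was close to the higher DMSO library, and the difference of 0.10 ± 0.05 (adjusted p = 0.377) had an interval from -0.02 to 0.22.

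Tgfbr3 (ENSMUSG00000029287, chromosome 5, 107106570 to 107289629, minus strand), the co-receptor betaglycan, had 12.08 and 11.98 in DMSO, against 11.69 and 11.51 in GSK. Both GSK libraries were below both DMSO libraries, and the distance between the groups was larger than the gap of 0.10 between the DMSO replicates and of 0.19 between the GSK replicates. The means were 12.03 ± 0.07 and 11.60 ± 0.13, a difference of -0.43 ± 0.07 with an interval from -0.61 to -0.25. With a limma adjusted p of 0.0703 it came nearest to the threshold among the 10 genes, and was the only one of them under 0.10, as were 2.50% of all tested genes. Over the single libraries left out the difference ran from -0.523 (without GSK library 1) to -0.335 (without GSK library 2). With no filter on low values the limma adjusted p of Tgfbr3 was 0.261.

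By the distance between centred log2 values over the 4 libraries, the 3 genes with the pattern most like that of Tgfbr3, among 11239 protein-coding genes, were Ifi205, an interferon-inducible gene, Ier3, an immediate early gene, and Ripor3. Their distances were 0.0306, 0.0332 and 0.0335, and their differences between the groups were -0.43, -0.46 and -0.40. With only 4 libraries and so many candidates, near matches are plentiful and the likeness is a description.

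The latent binding proteins differed less between the groups than between the replicates of at least 1 group, Ltbp1 included. Ltbp1 (ENSMUSG00000001870, chromosome 17, 75005568 to 75392512, plus strand), which binds latent TGF-beta covalently and anchors it in the matrix, had 10.56 and 10.77 in DMSO and 10.14 and 10.53 in GSK. GSK library 2 lay just under DMSO library 1, and GSK library 1 stood 0.39 below its replicate. The difference was -0.33 ± 0.13 (limma adjusted p = 0.286), with an interval from -0.65 to -0.02, and it was -0.14 without GSK library 1 and -0.527 without GSK library 2.

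Ltbp2 (ENSMUSG00000002020, chromosome 12, 84783212 to 84876532, minus strand), the member that does not bind latent TGF-beta but sits on fibrillin fibres, had 13.60 and 13.85 in DMSO and 13.81 and 13.71 in GSK. Ltbp3 (ENSMUSG00000024940, chromosome 19, 5740904 to 5758532, plus strand), known from bone and tooth development, had 11.56 and 11.74 in DMSO and 11.60 and 11.67 in GSK. Ltbp4 (ENSMUSG00000040488, chromosome 7, 27305136 to 27337692, minus strand), which binds latent Tgfb1 and takes part in elastic fibre assembly, had 10.46 and 10.81 in DMSO and 10.62 and 10.55 in GSK. In these 3 genes both GSK libraries lay between the DMSO libraries, so that the control replicates enclosed the other group. The differences were 0.04 ± 0.09, -0.02 ± 0.07 and -0.05 ± 0.11 (limma adjusted p = 0.873, 0.924 and 0.861), and the intervals ran from -0.19 to 0.26, from -0.18 to 0.15 and from -0.31 to 0.22.

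DMSO library 2 was above DMSO library 1 in 8 of the 10 genes, namely all but Tgfbr2 and Tgfbr3, whereas among all tested genes this held for 49.6%. In GSK, library 2 was above library 1 in 6 of 10 genes and in 49.5% of all tested genes. The signs of Tgfb2, Ltbp2, Ltbp3 and Ltbp4 turned with a single library left out, while those of the 6 other genes did not. Tgfb1 ran from 0.205 (without DMSO library 1) to 0.382 (without DMSO library 2), and Tgfb3 from 0.251 (without GSK library 2) to 0.465 (without GSK library 1). Tgfbr2 ran from -0.283 (without DMSO library 2) to -0.173 (without DMSO library 1) and was -0.145 after quantile normalisation. Tgfbr1 ran from 0.055 (without GSK library 2) to 0.148 (without GSK library 1).

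**Figure D2:**
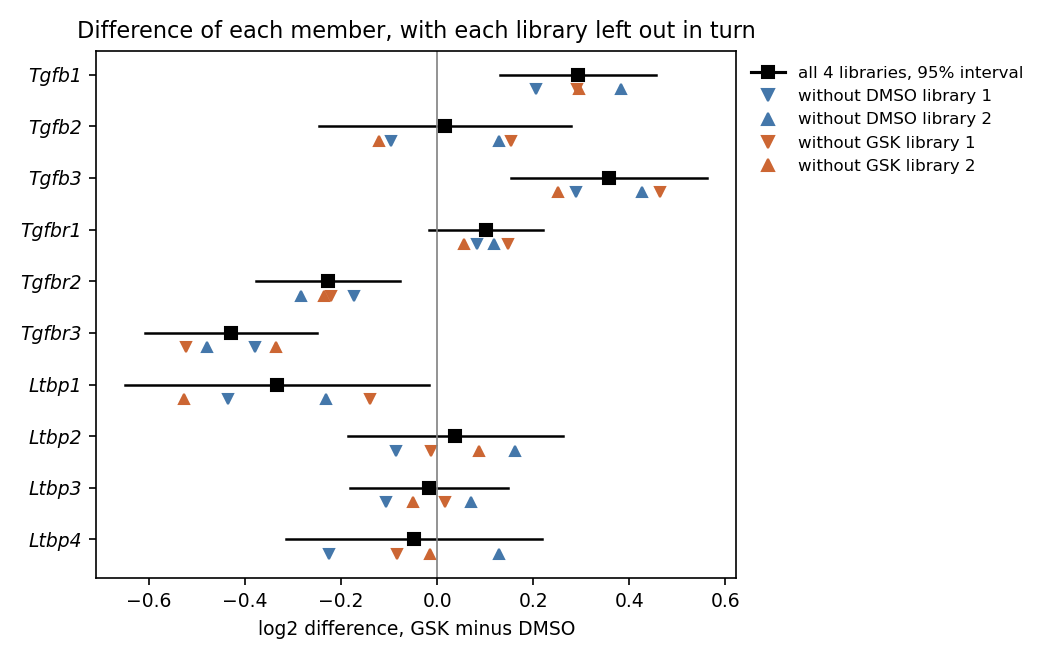
Log2 difference (GSK minus DMSO) of each gene with all 4 libraries (black square, with the limma 95% interval, not adjusted for the number of genes) and with each library left out (triangles). The triangles of Tgfb1, Tgfb3 and Tgfbr1 stay above 0 and those of Tgfbr2, Tgfbr3 and Ltbp1 below 0, whereas those of the other 4 genes fall on both sides.

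Levels of the 10 genes were compared with one another only per length, as the log2 value minus log2 of the summed exon length in kilobases. The marker values above were not corrected for length. Tgfbr2 was highest at 10.79 (mean over the 4 libraries), followed by Ltbp2 at 10.71, Tgfb3 at 10.37 and Tgfb1 at 10.11. Tgfbr2 and Ltbp2 changed places in GSK library 1. In every library Ltbp2 stood above Tgfb3 and Tgfb3 above Tgfb1, although the ranges of these neighbours over the libraries overlapped. Tgfbr2 stood above Tgfb3 with no overlap, its lowest library at 10.67 and the highest of Tgfb3 at 10.65. Tgfbr3 followed at 9.10 and Ltbp3 at 8.46, each separated from both neighbours in every library. Tgfbr1 at 8.14, Tgfb2 at 8.04 and Ltbp4 at 7.92 overlapped with one another, and Ltbp1 was lowest at 7.08, below all the others. Among 14516 genes with a length, the 10 genes stood between the percentile 62.6 (Ltbp1) and the percentile 96.2 (Tgfbr2).

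The order at the top depends on the length taken for a gene. Tgfb1 has 5042 bases of exon in all its annotated transcripts but 2573 in the longest, and with the longest transcript it moved from rank 4 to rank 1, at 11.08, ahead of Ltbp2 at 10.99, Tgfbr2 at 10.81 and Tgfb3 at 10.37. The 6 lower genes kept their ranks by mean, but Tgfbr3 (8.90 to 9.47) and Ltbp3 (9.05 to 9.22), separated with the summed exon length, then overlapped.

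**Figure D3:**
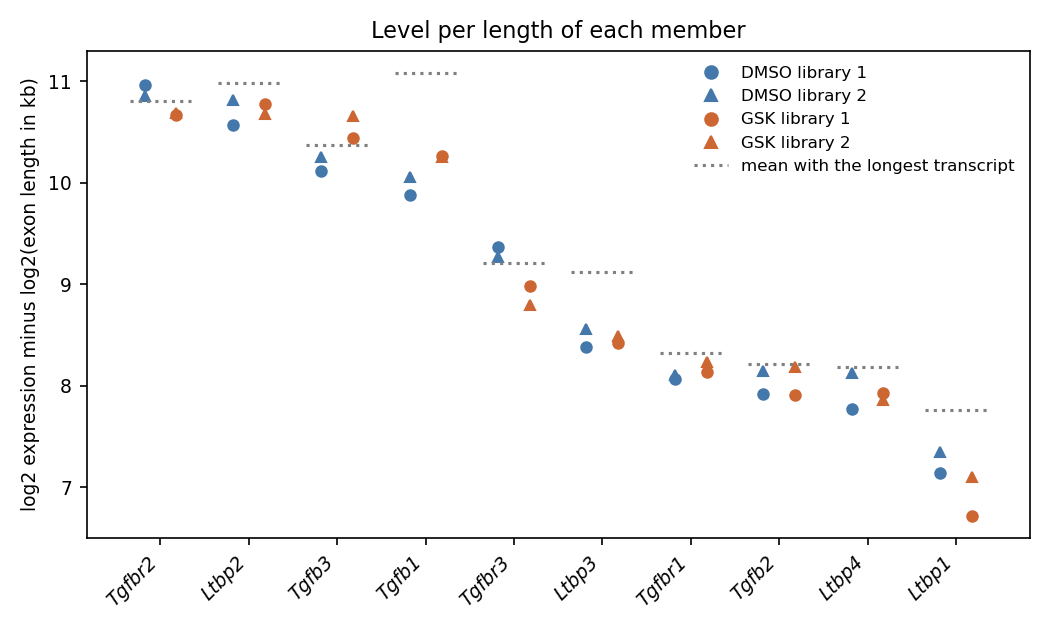
Level per length (log2 expression minus log2 of the exon length in kilobases) of each gene in the 4 libraries, ordered by mean, with the mean obtained from the longest transcript as a dotted line. The top 4 genes lie between 9.88 and 10.96 in the libraries, and Ltbp1 lies between 6.72 and 7.35.

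Within each family the make-up on the linear per-length scale was given as a share of the family's sum. Tgfb3 made up 48.5% and 47.7% of the ligand sum in DMSO, against 48.6% and 51.6% in GSK, and Tgfb1 41.0%, 41.4%, 42.9% and 39.1% in the same order. With the longest transcript this order turned, to 33.8% to 37.1% for Tgfb3 and 55.3% to 59.1% for Tgfb1. Tgfb2 held 10.5% and 11.0% in DMSO and 8.41% and 9.31% in GSK.

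Of the receptor sum, Tgfbr2 held 67.4% to 68.8% in the 4 libraries. The share of Tgfbr3 was 22.6% and 22.5% in DMSO and 20.9% and 18.6% in GSK, and that of Tgfbr1 was 9.19% and 10.04% in DMSO and 11.7% and 12.6% in GSK. Of the binding protein sum, Ltbp2 held 68.7% and 68.8% in DMSO and 71.7% and 69.2% in GSK. Ltbp1 held 6.40% and 6.21% in DMSO and 4.30% and 5.81% in GSK. Ltbp3 held 14.0% to 15.1% and Ltbp4 9.81% to 10.6%. Shares did not overlap between the groups for Tgfbr3, Tgfb2 and Ltbp1 (lower in GSK) and for Tgfbr1, Tgfb3 and Ltbp2 (higher). For Tgfb3 the margin was small, at 48.5% in DMSO library 1 against 48.6% in GSK library 1. With the longest transcript as length, its groups overlapped. Such shares have no counterpart over all genes, but the plain values of 48.6% of all tested genes did not overlap either. Those of the remaining genes overlapped. Within a family a lower share of a gene raises the shares of the others, and no test was made beyond those of the single genes.

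The other genes of the pathway were read from 6 lists, which together held 88 distinct tested genes, among them the member Ltbp2 as a response gene. None of the 88 passed an adjusted p of 0.05 in limma without a block for the replicate number. With the block 25 passed, as did 1374 of all 14548 tested genes. Without the block 25 had an unadjusted p under 0.05 (14 higher and 11 lower in GSK). The groups did not overlap in 47 (27 higher and 20 lower). Of all tested genes 16.0% had an unadjusted p under 0.05 and 48.6% had groups that did not overlap, and the counts of the lists below are to be read against the latter share. Tgfbi, Ccn2, Lrrc15, Pmepa1, Itgb3, Eng and the untested Itgb6 and Nrros are named below after their values were seen, and all other genes by smallest p.

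In the list of latency release and presentation, 13 of 15 genes were tested, 10 had groups that did not overlap (8 higher and 2 lower, against 24.1% and 24.5% of all tested genes) and the median difference was 0.06. Itgb5, the integrin chain that pairs with Itgav to bind the latent complex, had 13.09 and 13.18 in DMSO and 13.45 and 13.50 in GSK, a difference of 0.34 ± 0.06 (limma adjusted p = 0.0688). Itgb3, another partner of Itgav, was at 0.33 ± 0.08 (adjusted p = 0.126). Mmp9, a gelatinase able to cleave latent TGF-beta, had 10.42 and 11.00 in DMSO and 11.54 and 12.16 in GSK, so that GSK library 2 was the highest and DMSO library 1 the lowest. Its difference of 1.14 ± 0.24 missed the threshold (adjusted p = 0.106) but passed it without DMSO library 2 (1.433, adjusted p = 0.0395), a fit in which the lone DMSO library is assumed to vary like the GSK libraries. Without DMSO library 1, GSK library 1 or GSK library 2 it did not pass, at 0.854, 1.455 and 0.833 (adjusted p = 0.293, 0.0543 and 0.205). Lrrc32 (GARP), which holds latent TGF-beta on the cell surface, lay lower in GSK at -0.26 ± 0.06 (adjusted p = 0.111). Itgb6 and Nrros, known from epithelium and from microglia and macrophages, were under the filter at 1.57 and 1.59 in DMSO.

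Among the matrix anchors and small proteoglycans all 15 genes were tested, the groups did not overlap in 5 (48.6% of all tested genes), and the median difference was 0.01. None had an unadjusted p under 0.05. The smallest p values belonged to Efemp2, an elastic fibre protein, at -0.15 ± 0.07, Dcn (decorin), which binds TGF-beta, at -0.31 ± 0.14, and Emilin1, which holds back its processing, at 0.09 ± 0.05 (limma adjusted p = 0.323, 0.34 and 0.46). After quantile normalisation Efemp2 was at -0.058 and Emilin1 at 0.151. Dcn was at -0.114 without GSK library 2 and at -0.498 without GSK library 1.

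The co-receptors and pseudoreceptors were all tested (10 genes), with groups that did not overlap in 7 (48.6% of all tested genes) and a median difference of 0.03. Bambi, a decoy receptor that blocks signalling, had 7.89 and 7.88 in DMSO and 7.54 and 7.66 in GSK, a difference of -0.28 ± 0.06 (limma adjusted p = 0.0892). Nrp2, a neuropilin, was at 0.33 ± 0.07 and Sdc2, a syndecan, at 0.17 ± 0.04 (adjusted p = 0.112 and 0.144). Eng (endoglin), a relative of betaglycan, was at 0.29 ± 0.08 (adjusted p = 0.151), on the other side of 0 from Tgfbr3.

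All 20 SMAD transducers and regulators were tested, the groups did not overlap in 10, a share near the 48.6% of all tested genes, and the median difference was -0.02. Tgif1, a repressor that sits on SMAD complexes, had 10.30 and 10.24 in DMSO and 9.96 and 9.90 in GSK, a difference of -0.34 ± 0.05 (limma adjusted p = 0.056). The inhibitory Smad7, itself a target of the pathway, was at -0.26 ± 0.05 (adjusted p = 0.0894) and the transducer Smad3 at -0.18 ± 0.05 (adjusted p = 0.142). Pmepa1, a feedback inhibitor, had the opposite sign at 0.28 ± 0.07 (adjusted p = 0.157), although it and Smad7 are both counted as response genes.

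Of 25 TGF-beta response genes 24 were tested, the groups did not overlap in 12 (6 higher and 6 lower), again near the 48.6% of all tested genes, and the median difference was -0.0011. The genes with the smallest p were Bhlhe40, a transcriptional repressor, at -0.32 ± 0.05 (limma adjusted p = 0.0653), Cthrc1, a secreted collagen-associated protein, at -0.32 ± 0.06 (adjusted p = 0.0874), and Smad7. Among genes named after their values were seen, Tgfbi, a secreted adhesion protein, had 12.22 and 12.08 in DMSO and 11.87 and 11.73 in GSK (-0.35 ± 0.07, adjusted p = 0.0948). Ccn2, a matricellular protein, was at 0.33 ± 0.09 (adjusted p = 0.161) and Lrrc15, a myofibroblast surface protein, at 0.44 ± 0.13 (adjusted p = 0.191). Textbook targets therefore lay on both sides of 0, with none past the threshold.

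In the activin branch, which shares Smad2 and Smad3 with TGF-beta, 9 of 11 genes were tested, the groups did not overlap in 5 (48.6% of all tested genes), and the median difference was 0.03. Inhba, the activin A chain, had 12.71 and 12.80 in DMSO and 13.07 and 13.01 in GSK, a difference of 0.28 ± 0.06 (limma adjusted p = 0.0947). Its antagonist Fst (follistatin) was at -0.14 ± 0.05 and the type II receptor Acvr2a at -0.15 ± 0.06 (adjusted p = 0.215 and 0.313).

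**Figure D4:**
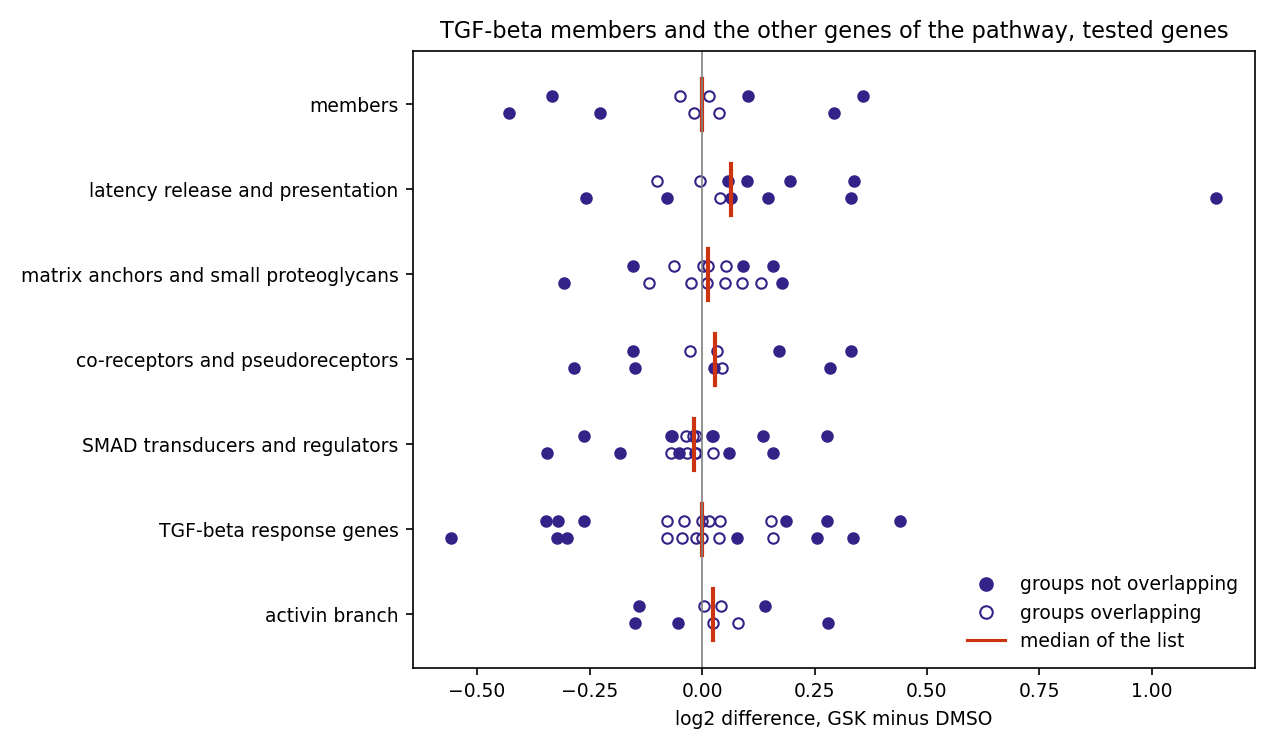
Log2 difference (GSK minus DMSO) of every tested gene of the 10 members and of the 6 pathway lists, with filled points where the groups did not overlap and a red line at each list's median. The medians lie between -0.02 and 0.06, and the point at 1.14 is Mmp9.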

How the data were processed

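RNA-seq values of 4 libraries (2 DMSO, 2 GSK) were used. The authors deposited normalised values on a log2 scale, 1 column per library, with no sample column left unused; per the submitters' processing notes the tools were RSEM 1.2.29, DESeq2 1.12.4 and Bowtie2, with mm10 and GRCh38 as builds, and the transformation is not given in the sources used here. Values ran from -1.035 to 20.58. A tested gene spanned 0.113 over the libraries (median) and each of the 7908 genes under the filter 0.0178 (median), so differences of low genes are compressed. Read depth is unknown. Symbols, coordinates and exon lengths came from GENCODE M21 (GRCm38, 22357 identifiers matched), promoters from RefSeq (8 of 10 genes matched).

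limma 3.58.1 (R 4.3.3) was fitted to 14548 genes, those whose mean reached log2 of 10 (3.32), with the group only and a variance prior that follows the mean; p-values are two-sided and Benjamini-Hochberg adjusted over all tested genes, threshold 0.05. In simulated data for this comparison (14548 genes, 200 changed), 17 of 67 differences of 0.25, 59 of 67 of 0.5 and 66 of 66 of 1 (log2) were recovered, with 8 unchanged genes among 150 calls. The members and lists were chosen with earlier results of these data known. Named were all 10 members, the 3 genes of smallest p in each list, any gene past the threshold, and the 3 genes most like the member of smallest p; the further pathway genes and markers in the text were picked with their values known.

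Transcripts of the members were aligned to all transcripts (blastn 2.17.0, at least 98% identity over 200 bases). Matches and exon overlaps included Gm48008 and Gm37804 (Tgfb3), Gm29491 (Tgfb2), Gm43422 (Tgfbr3) and D030025P21Rik (Ltbp2, 764 bases), mostly on the opposite strand; the sources used here do not say whether counting used strand, and small parts of these values are uncertain.

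Alternatives were other filters, normalisations, variance priors and a threshold of 0.10, a block for the replicate number, leaving out each library, and the longest transcript as length.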

Additional observations from a re-analysis of the deposited data

How the results depend on the processing

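The number of genes past the threshold, 41 of 14548, was 1 with no filter, 23 after quantile normalisation, 11 with a prior without trend, 138 with a robust prior, 363 at an adjusted p of 0.10 and between 7 (without DMSO library 1) and 194 (without DMSO library 2) with a library left out. The cause was not tested. Of the 10 members none passed in these settings, apart from Tgfbr3 at an adjusted p of 0.10, which makes 1. Of the 88 pathway genes, 8 passed at 0.10, 1 with a robust prior (Tgif1, adjusted p = 0.0434) and 0 to 1 with a library left out (Mmp9). Tgfb2 ran from -0.122 to 0.154 over the libraries left out, Ltbp2 from -0.086 to 0.162, Ltbp3 from -0.106 to 0.071 and Ltbp4 from -0.226 to 0.128, so their signs turned; the 6 other members kept theirs under all 12 alternatives.

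With the replicate number as a block, 1374 genes passed, 25 of the pathway lists and 5 of the members: Tgfbr3 (adjusted p = 0.000795), Tgfb3 (0.00164), Ltbp1 (0.00573), Tgfb1 (0.0103) and Tgfbr2 (0.0244). Over tested genes the deviations of same-numbered libraries correlated at 0.428. The labels do not say that a number marks shared animals or a shared day, and with 2 pairs the numbers were not taken to pair the libraries. Whether they do was not tested further, and the calls above come from the fit without the block.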
